A study of Mus musculus with 16 samples.

Results

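Mitochondrial ribosomal proteins (MRPs), the nuclear-encoded proteins of the ribosome inside mitochondria, were examined in CD11b+ brain cells. Their genes were taken as the rows of the count table whose symbol is Mrpl or Mrps followed by a number and at most 1 letter, and that had more than 10 counts in at least 4 of the 16 libraries. All 77 matching rows passed this filter, out of 24421 rows in the table and 14565 genes that passed it in all. By the current understanding of the mitochondrial ribosome, 50 of the 77 proteins belong to the large subunit, 26 to the small subunit, and 1, Mrps36, is named as a ribosomal protein but is a subunit of the 2-oxoglutarate dehydrogenase complex.

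The mice were C57BL/6J females, newly weaned at the start, and 1 library was made from each mouse. Controls (CON, n = 4) received standard chow and malnourished mice (MAL, n = 5) received a diet low in fat and protein with equal calories, for about a month. The third group (MAL-BG, n = 7) received the same malnourishing diet and was gavaged with a mix of E. coli and Bacteroidales species, while CON and MAL received gavages of PBS. The design has no group that received the bacteria on standard chow, so the bacteria were compared only within malnourished mice, and MAL-BG versus CON joins diet and bacteria. CD11b, the integrin that marks microglia and other myeloid cells, was used to enrich the cells with magnetic beads, and the source is given as cortical tissue in the labels and as whole brain in the study's methods.

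Libraries held 10312703 to 13461574 counts in CON and 10864121 to 12819982 in MAL, against 14191791 to 18705202 in MAL-BG. All 15 microglial markers listed were measured, and their summed level was 26892 CPM in CON and 28047 in MAL, against 52208 in MAL-BG. CPM are counts relative to the total of a library, scaled between libraries with TMM (trimmed mean of M values). The enrichment was not pure. The 16 markers of the choroid plexus, the epithelium that makes cerebrospinal fluid, summed to 14369 to 55472 CPM in CON and 6764 to 43763 in MAL, against 1867 to 16900 in MAL-BG, and 16 of 16 fell in MAL-BG versus CON. The 12 neutrophil markers measured summed to 730 CPM in CON and 755 in MAL, against 3290 in MAL-BG, with 13579 in MAL-BG library 5 alone. In bulk RNA, fewer cells of a type and less RNA per cell cannot be told apart, and the part of these shifts in cell makeup in the MRP differences was not tested.

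Mitochondria keep a small genome of their own, and the mitochondrial ribosome translates its messages, all of which encode core subunits of the respiratory chain and ATP synthase. Its ribosomal RNAs come from mitochondrial DNA, but each of its proteins is encoded in the nucleus, made by cytosolic ribosomes, and imported. Some MRPs descend from bacterial ribosomal proteins and others were added during the evolution of mitochondria. Microglia, the resident macrophages of the brain, draw on oxidative phosphorylation as well as glycolysis, and their balance shifts with activation state.

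MRP genes are known for compact GC-rich promoters with sites for NRF1, the ETS factor GABP, and YY1. RefSeq windows from 250 bases before to 50 after the transcription start (GRCm38.p6) were matched by symbol for 68 of the 77 genes. Stretches from 120 bases before the start to 30 bases into the transcript are shown for 6 genes, because they span those that stood highest in MAL-BG and those that hardly differed. Capitals mark letters that match GCATGCGC (core of the NRF1 motif), CCGGAAG (ETS), or AAGATGGC (YY1) on either strand, and overlapping matches run together. Mrpl44 (chr1:79775898-79776047, plus strand) and Mrpl43 (chr19:45006413-45006562, minus strand) were higher in all MAL-BG libraries, as was Mrpl9 (chr3:94443216-94443365, plus strand). Mrps18a (chr17:46110884-46111033, plus strand) was moderately higher, and Mrps27 (chr13:99344666-99344815, plus strand) and Mrpl32 (chr13:14613008-14613157, minus strand) were called in no comparison.
Mrpl44: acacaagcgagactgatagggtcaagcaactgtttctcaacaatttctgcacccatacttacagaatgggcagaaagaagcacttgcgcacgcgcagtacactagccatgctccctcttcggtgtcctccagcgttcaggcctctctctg
Mrpl43: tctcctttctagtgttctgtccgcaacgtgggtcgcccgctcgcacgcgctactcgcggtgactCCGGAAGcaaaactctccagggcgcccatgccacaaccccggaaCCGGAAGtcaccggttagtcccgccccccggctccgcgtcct
Mrpl9: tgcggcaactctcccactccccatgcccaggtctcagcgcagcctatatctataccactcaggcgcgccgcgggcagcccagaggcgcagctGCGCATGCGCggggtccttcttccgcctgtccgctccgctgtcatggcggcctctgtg
Mrps18a: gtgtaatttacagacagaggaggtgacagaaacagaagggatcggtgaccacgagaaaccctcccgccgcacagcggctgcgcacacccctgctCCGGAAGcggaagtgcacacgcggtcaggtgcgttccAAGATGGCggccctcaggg
Mrps27: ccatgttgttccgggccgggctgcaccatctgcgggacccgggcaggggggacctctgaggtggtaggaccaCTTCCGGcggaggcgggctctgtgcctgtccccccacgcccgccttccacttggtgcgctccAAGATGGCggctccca
Mrpl32: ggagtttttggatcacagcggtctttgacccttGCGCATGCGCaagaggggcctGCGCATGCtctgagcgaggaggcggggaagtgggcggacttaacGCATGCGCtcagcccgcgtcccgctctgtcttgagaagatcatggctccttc

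Mrpl44, with the largest rise, held no exact match to these 3 motifs in the stretch shown. It did hold GCACGCGC, which differs from the NRF1 core searched by C in place of T. Mrpl32, with log2 fold changes near 0, held several exact NRF1 cores. Over the full windows, the NRF1 core was found in 8 of 68 MRP genes (11.8%) and in 5.17% of the 11034 tested genes with a window. The ETS motif was found in 24 (35.3%, against 16.6%) and the YY1 motif in 12 (17.6%, against 4.37%). GGGCGG, the core of the Sp1 motif, was found in 34 (50%, against 63.0%), and CCAAT in 27 (39.7%, against 38.2%). At least 1 of the first 3 motifs stood in 4 of the 16 windows of genes called higher in MAL-BG than in CON, and in 32 of the 50 windows of genes not called. Versus MAL the counts were 9 of 23 (39.1%) called higher and 27 of 45 (60.0%) not called, a smaller gap. The median log2 fold change versus CON was 0.15 for the 36 genes with such a match and 0.27 for the 32 without. These are matches of exact letters, so near variants were not counted, and they are given as a description.

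MRP transcripts had a median log2 fold change of 0.22 in MAL-BG versus CON, which fell to 0.06 once gene length and GC content were adjusted for. Of 77 genes, 57 had a positive log2 fold change and 18 were called higher (adjusted p under 0.05, edgeR quasi-likelihood test, Benjamini-Hochberg adjustment over 14565 genes), which is 23.4% of the members beside 19.8% of all genes tested. Only 2 were called lower, Mrps6 and Mrps36, or 2.6% of the members beside 25.2% of all genes. The share called higher was near that of all genes, and the share called lower was smaller than theirs. The quartiles of the 77 log2 fold changes were −0.0015 and 0.35, and the median over all genes tested was −0.04. With offsets for length and GC, 46 of 77 were positive in place of 57, and with scaling by total counts 45 were.

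With the study's threshold for differentially expressed genes (DEGs), which also asks for an absolute log2 fold change above 0.58, 3 MRP genes were higher (Mrpl44, Mrps30, and Mrpl2), or 3.9% beside 11.4% of all genes. Another 2 were lower, beside 21.7%. Differences of most members were small, and all but 5 were under this size or missed the adjusted p. At an unadjusted p under 0.05, 32 members passed, and 52.7% of all genes did.

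**Figure D1:**
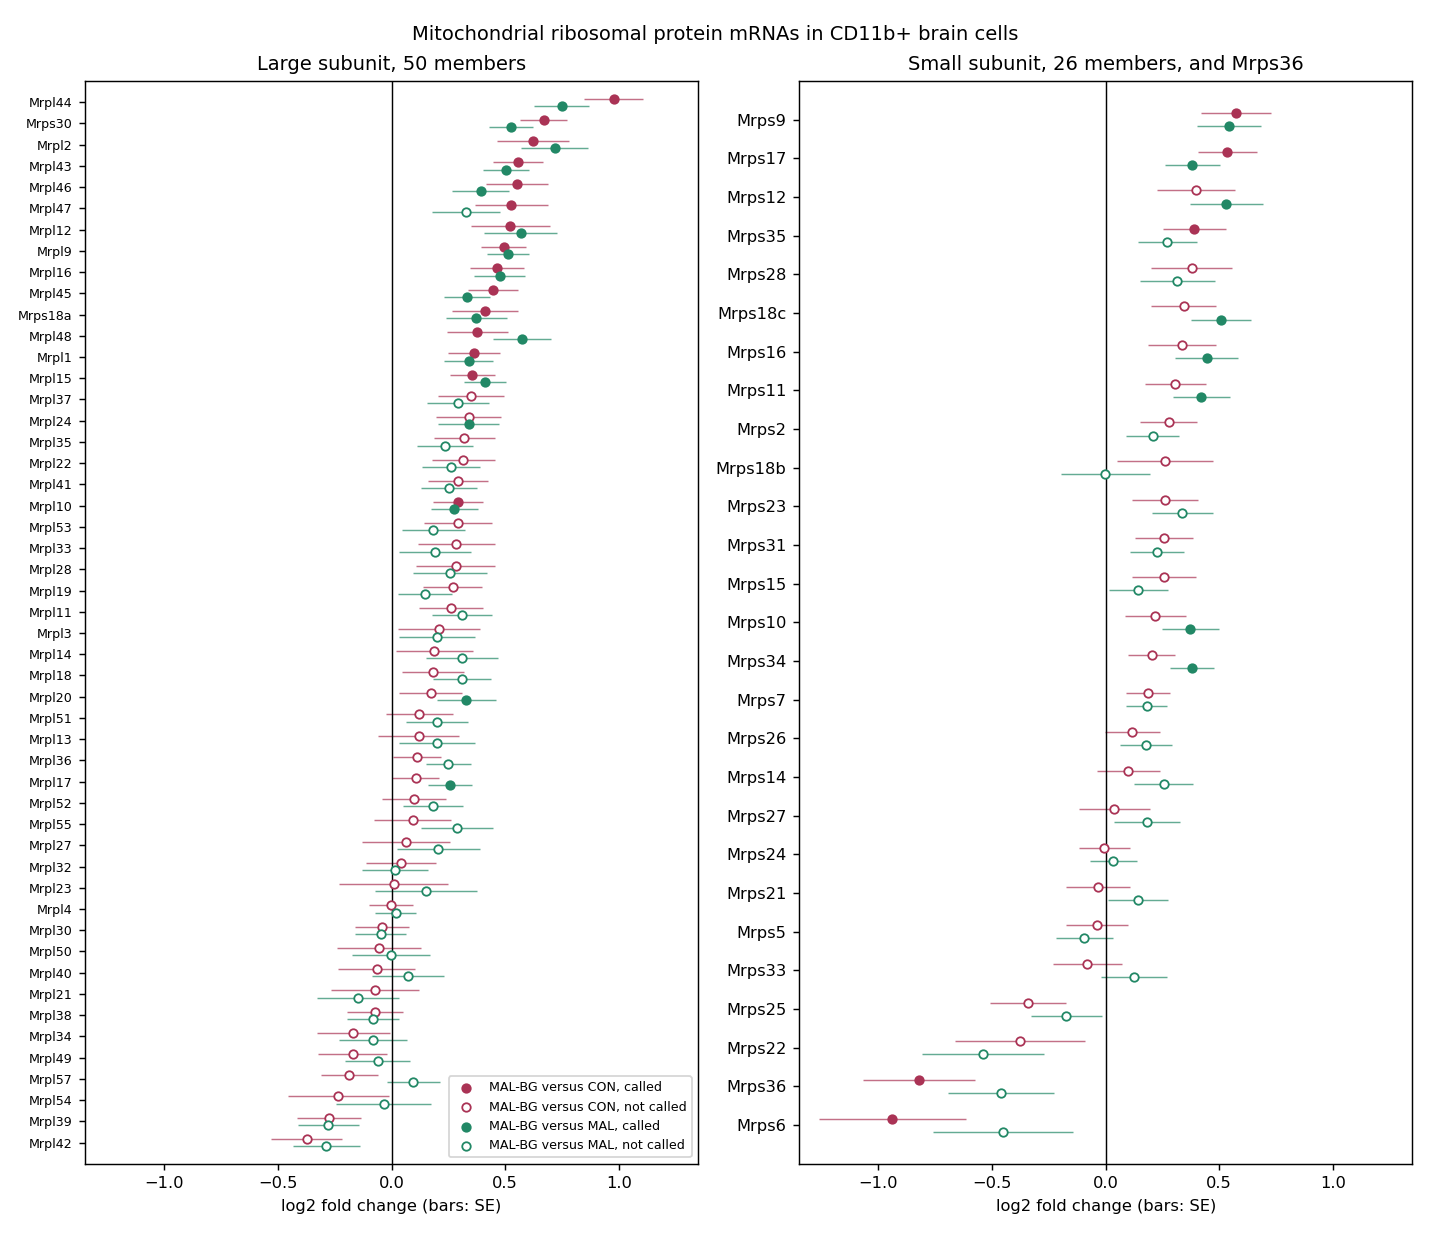
Log2 fold changes (x axis, bars are SE) of the 50 large subunit genes (left) and of the 26 small subunit genes with Mrps36 (right), in MAL-BG versus CON and in MAL-BG versus MAL. Filled points were called and open points were not. Most points lie to the right of 0, Mrpl44 lies farthest right, and Mrps6 and Mrps36 are the lowest versus CON.

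Against MAL, the comparison in which the diet was shared and the bacteria differed, 62 of 77 had a positive log2 fold change, or 43 with offsets for length and GC. There 25 were called higher (32.5% of the members, beside 20.2% of all genes) and 0 lower (beside 24.1% of all genes), with a median log2 fold change of 0.25 beside −0.03 over all genes. By the DEG threshold, 2 were higher, Mrpl44 and Mrpl2 (beside 10.2% of all genes), and 0 lower (beside 20.2%). DESeq2 also called 0 lower, and 31 members passed an unadjusted p under 0.05 in either direction, as did 52.2% of all genes. The comparison shares its 7 MAL-BG libraries with the first, so the 16 genes called higher in both are not independent observations.

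Diet alone gave no call. In MAL versus CON, 0 members were called higher and 0 lower by edgeR, beside 0% of all genes in each direction, and DESeq2 also called 0 members. None of the 77 passed an unadjusted p under 0.05, while 1.46% of all genes did. That is below the share this threshold would pass if no gene differed. The test was thus conservative in this comparison, and small effects of diet could be missed. The median log2 fold change was −0.04 over members and −0.02 over all genes, and 35 of 77 were positive. The smallest p was that of Mrpl57, a protein of the large subunit without a bacterial relative. Its levels were 18.9, 24.7, 23.2, and 20.5 CPM in CON and 15.9, 20.7, 18.8, 18.4, and 16 in MAL. The 2 groups overlapped, with a log2 fold change of −0.28 ± 0.13 (SE) and an adjusted p of 0.999 from edgeR. In MAL-BG it ranged from 16.4 over a median of 19.5 to 23.0 CPM.

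The level summed over the 77 genes was 1747 ± 121 CPM in CON (SD, n = 4) and 1697 ± 131 in MAL (n = 5), against 2016 ± 125 in MAL-BG (n = 7). The range was 1622 to 1885 in CON and 1516 to 1860 in MAL, against 1785 to 2179 in MAL-BG. Of the 7 MAL-BG libraries, 6 lay above every CON and MAL library, and library 6 lay inside their range. MAL-BG library 6 was the lowest of its group for 40 of the 77 genes. Without it, 31 members were called versus CON and 34 versus MAL, in place of 20 and 25. Versus CON, 36.4% of members were then higher and 3.9% lower, beside 21.3% and 27.2% of all genes. Versus MAL, 41.6% were higher and 2.6% lower, beside 22.2% and 26.6% of all genes. As a plain share of all counts, with no scaling between libraries, members took 0.182 ± 0.0174% in CON and 0.177 ± 0.0135% in MAL, against 0.191 ± 0.00979% in MAL-BG.

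**Figure D2:**
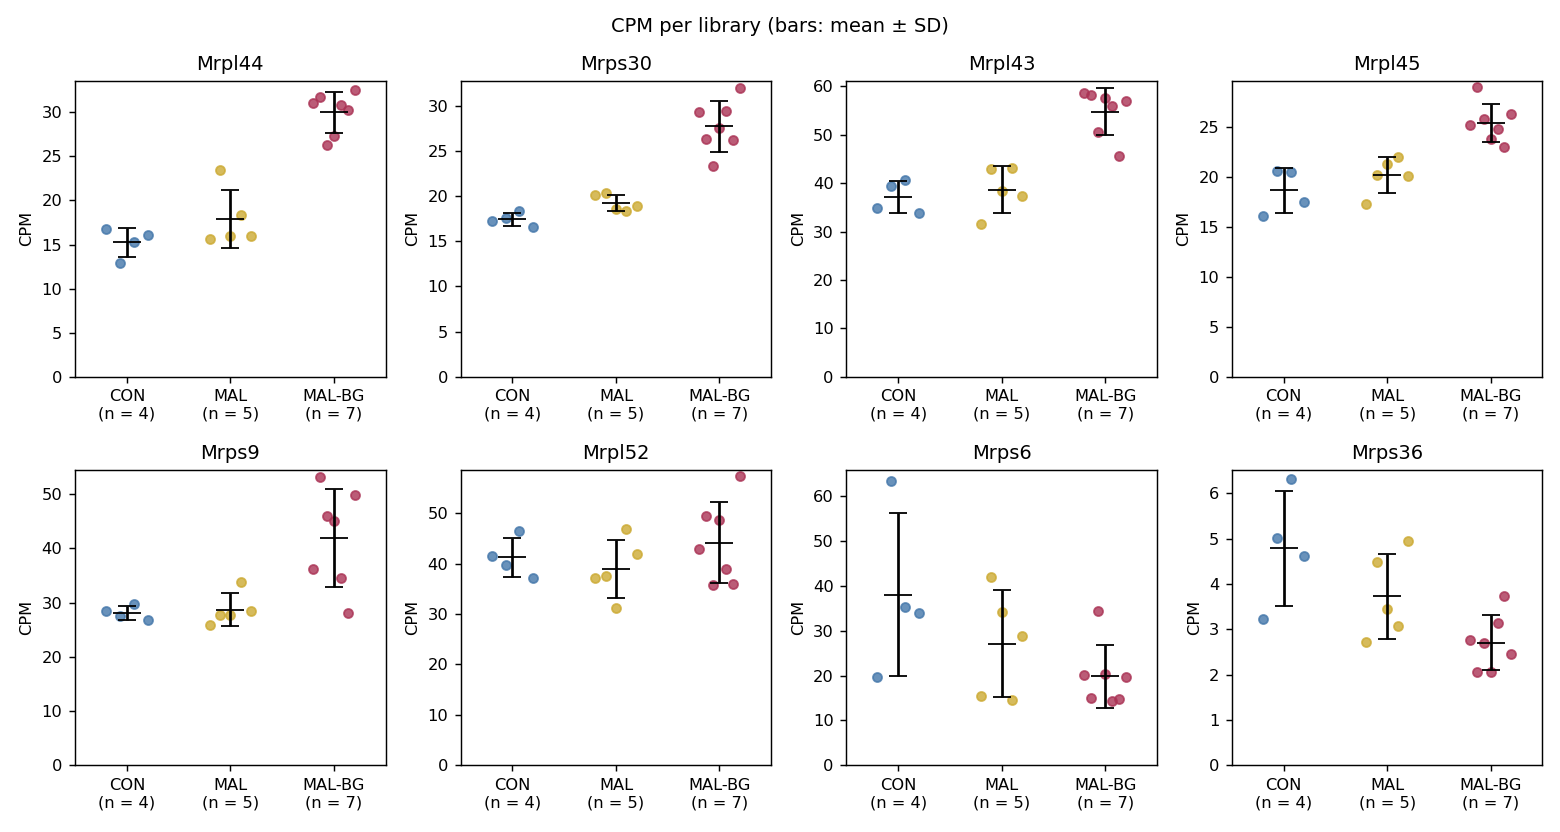
CPM (y axis, from 0) of 8 members in each CON, MAL, and MAL-BG library, with the mean and SD of each group. The MAL-BG points of Mrpl44, Mrps30, Mrpl43, and Mrpl45 lie above all other points, 6 of 7 do so for Mrps9, and the groups overlap for Mrpl52, Mrps6, and Mrps36.

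The size of the shift depended on how gene length and library composition were treated. MRP messages are short, with a median length of 1288 bases beside 3007 bases over 13997 tested genes with a length, and a similar GC content (50.7% and 50.4%). Under offsets that adjust each library for gene length and GC content, the median log2 fold change fell to 0.06 versus CON and 0.04 versus MAL, and there were 16 calls higher (20.8% of members, beside 20.3% of all genes under the same offsets) and 5 lower (6.49%, beside 24.3%) versus CON. Versus MAL there were 14 higher (18.2%, beside 20.1%) and 6 lower (7.79%, beside 23.1%). The share of members called higher was thus close to that of all genes under the offsets. Among the shorter 39 members, 4 were called higher versus CON (median 0.17), and among the longer 38 members 14 were (median 0.27). Versus MAL the split was smaller, with 10 (median 0.20) and 15 (median 0.26). Scaling by total counts alone, which also moved the median of all genes to −0.17, gave a member median of 0.08, with 10 higher and 5 lower calls. It gave 0.11 versus MAL, with 12 higher and 2 lower and a median of all genes of −0.16. Of all genes called versus CON, 44.0% were higher with TMM, 32.8% with total counts, and 64.7% with offsets plus scaling by the mean log2 CPM, and the last setting called 35 members higher and 2 lower. Mrpl2, Mrpl9, Mrpl43, Mrpl44, and Mrps30 were called higher in both comparisons under each of 28 settings, by adjusted p alone. The share of all genes that did so was not counted. Of these members, Mrpl9 and Mrpl43 missed the DEG threshold in both comparisons, and Mrps30 missed it versus MAL.

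**Figure D3:**
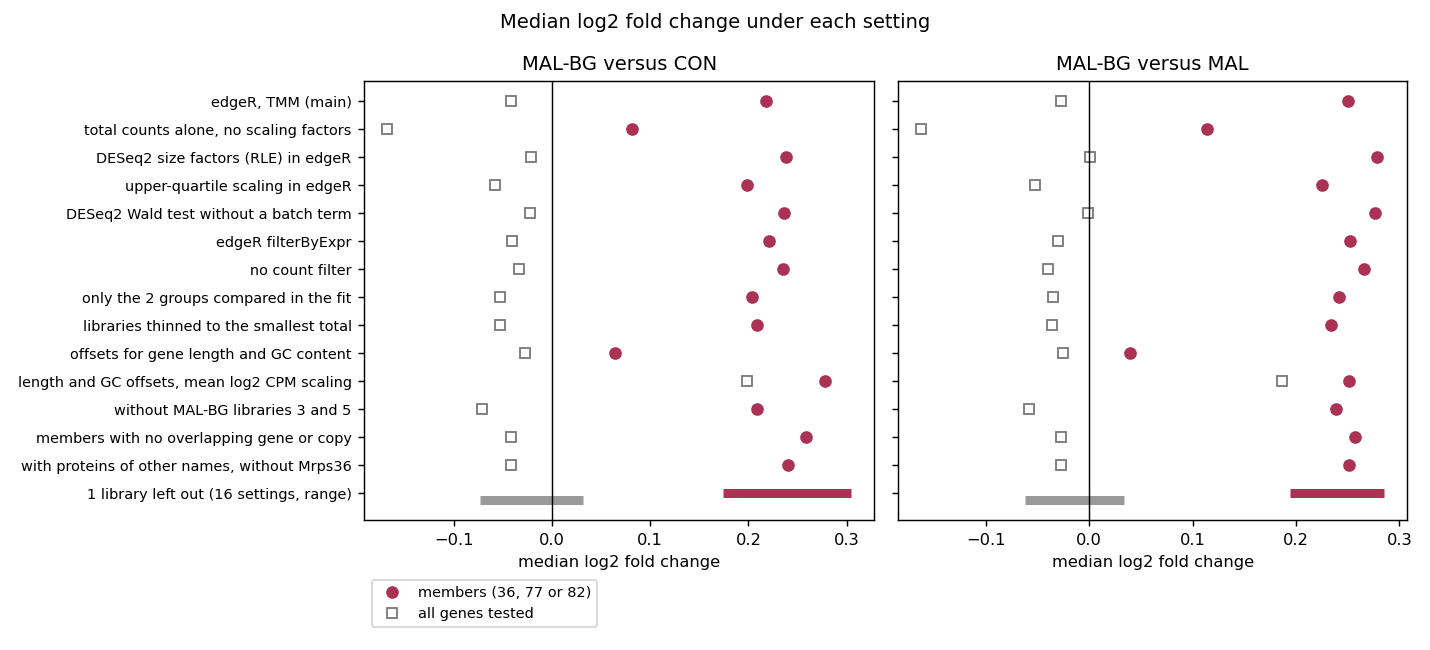
Median log2 fold change (x axis) of the members (circles) and of all genes tested (squares) under each setting, with the range over settings that leave out 1 library as bars, for each MAL-BG comparison. The member median lies above that of all genes in each of them, and it comes closest to 0 with the offsets, at 0.06 versus CON and 0.04 versus MAL.

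Among large subunit genes, 15 of 50 were called higher and 0 lower versus CON (30% and 0%, beside 19.8% and 25.2% of all genes), and 17 higher and 0 lower versus MAL (34% and 0%, beside 20.2% and 24.1%), with medians of 0.24 and 0.25. Their summed level was 1174 ± 70.1 CPM in CON and 1151 ± 86.9 in MAL, against 1384 ± 85.1 in MAL-BG. For 7 members (9.09%, beside 6.17% of all genes), the 7 MAL-BG libraries were all higher than the other 9, and all 7 of these were large subunit genes: Mrpl1, Mrpl9, Mrpl15, Mrpl43, Mrpl44, Mrpl45, and Mrps30. No member had all MAL-BG libraries below the others, beside 6.36% of all genes.

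Mrpl44 showed the largest rise of all members. It encodes a large subunit protein with an RNase III-like fold that is needed for assembly and stability of the subunit (chr1:79776018-79781445, plus strand). Its levels were 16.7, 12.9, 15.3, and 16 CPM in CON, 15.6, 23.4, 15.9, 18.4, and 16 in MAL, and 26.3 to 32.6 with a median of 30.9 in MAL-BG. Every MAL-BG library lay above every other, the nearest being MAL library 2. The log2 fold change was 0.98 ± 0.13 versus CON (adjusted p = 5.09e-05 from edgeR), which is 1.97-fold, and 0.75 ± 0.12 versus MAL (adjusted p = 0.000187), which is 1.68-fold. Its exons overlap those of Wdfy1 on the other strand.

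Mrps30 is a large subunit protein in spite of its name (chr13:118378381-118387252, minus strand). It stood at 17.3, 17.5, 18.4, and 16.6 CPM in CON, at 20.1, 20.4, 18.6, 18.4, and 18.9 in MAL, and from 23.3 over a median of 27.5 to 32.0 in MAL-BG. CON and MAL were narrow and the MAL-BG libraries were all higher. Differences were 0.67 ± 0.10 versus CON (adjusted p = 0.00014, edgeR) and 0.53 ± 0.09 versus MAL (adjusted p = 0.00045) on the log2 scale. Mrps18a, also of the large subunit and 1 of the 3 paralogs named Mrps18 (chr17:46110986-46128910, plus strand), was 18.4, 23.9, 20.3, and 20.7 CPM in CON, 16.9, 27.0, 20.8, 20.7, and 21.3 in MAL, and 20.6 to 33.7 with a median of 27.4 in MAL-BG. Only 4 of the 7 MAL-BG libraries lay above all others. Its log2 fold changes of 0.41 ± 0.14 (adjusted p = 0.0292) and 0.37 ± 0.13 (adjusted p = 0.033) were called by edgeR, and both calls were lost with offsets for length and GC content and with total counts.

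Mrpl43, a large subunit protein without a bacterial relative (chr19:45004829-45006442, minus strand), had 34.9, 39.4, 40.7, and 33.9 CPM in CON, 31.5, 42.9, 38.5, 43.2, and 37.3 in MAL, and 45.5 to 58.7 with a median of 57.0 in MAL-BG. The groups did not overlap, and the gap to the highest MAL library was small. Log2 fold changes were 0.56 ± 0.11 versus CON (adjusted p = 0.000778, edgeR) and 0.50 ± 0.10 versus MAL (adjusted p = 0.000992). Its exons overlap those of Twnk, the mitochondrial DNA helicase, on the other strand.

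The large subunit genes with a bacterial relative gave 8 calls higher of 30 versus CON and 10 versus MAL (26.7% and 33.3%). Those without one gave 7 of 20 in each comparison (35%), beside 19.8% and 20.2% of all genes. Mrps18a was counted among those without one, though its paralogs Mrps18b and Mrps18c were counted as having one. Mrpl2, whose bacterial relative lies near the peptidyl transferase centre (chr17:46646229-46650139, plus strand), had 33.4, 32.0, 33.3, and 30.1 CPM in CON and 28.5, 31.0, 24.6, 36.8, and 29.7 in MAL. In MAL-BG it ranged from 30.3 to 60.4 CPM with a median of 52.4. Here 6 MAL-BG libraries lay above all others and library 6 lay among them. The log2 fold change was 0.62 ± 0.16 versus CON (adjusted p = 0.00455, edgeR) and 0.72 ± 0.15 versus MAL (adjusted p = 0.00113).

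Mrpl9, with a bacterial relative of the same number, ranged from 30.9 to 35.9 CPM in CON, from 27.6 to 37.5 in MAL, and from 42.4 to 50.2 in MAL-BG, with no overlap. Its log2 fold changes were 0.49 ± 0.10 (adjusted p = 0.000883, edgeR) and 0.51 ± 0.09 (adjusted p = 0.000406). Smaller differences with the same separation were seen for Mrpl1, at 0.36 ± 0.11 and 0.34 ± 0.11, and for Mrpl15, at 0.35 ± 0.10 and 0.41 ± 0.09, each called in both comparisons. The call of Mrpl1 versus CON was lost without CON library 3 (0.33, adjusted p = 0.0563) or 4 (0.33, adjusted p = 0.056) and with thinned libraries, both of its calls were lost with total counts, and so was that of Mrpl15 versus CON.

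The stalk and its base recruit translation factors to the large subunit. Of its 3 genes, 2 were called higher in each comparison. Beside 19.8% and 20.2% of all genes called higher, such short lists (3 to 5 genes) carry no comparison. Mrpl12, the stalk protein itself, had 28.2, 34.0, 36.6, and 28.1 CPM in CON, 25.3, 33.7, 31.3, 36.1, and 27.1 in MAL, and 33.9 to 65.0 with a median of 47.7 in MAL-BG. Of the MAL-BG libraries, 5 lay above all others. Log2 fold changes were 0.52 ± 0.17 (adjusted p = 0.021, edgeR) and 0.57 ± 0.16 (adjusted p = 0.009). Mrpl10, which anchors the stalk, had 31.7, 40.2, 40.4, and 32.4 CPM in CON, 38.6, 39.8, 34.4, 34.5, and 35.4 in MAL, and 34.6 to 49.8 with a median of 44.9 in MAL-BG. Library 3 was the lowest there, and the other 6 lay above all CON and MAL libraries. Its log2 fold changes of 0.29 ± 0.11 and 0.28 ± 0.10 passed narrowly (adjusted p = 0.0402 and 0.0382 from edgeR). Mrpl11, at the base of the stalk, had 18.9, 28.9, 24.4, and 23.3 CPM in CON, 19, 24.8, 23.7, 24.3, and 23.6 in MAL, and 22 to 36.5 with a median of 28.9 in MAL-BG. With overlapping groups its log2 fold changes of 0.26 ± 0.14 (adjusted p = 0.138) and 0.31 ± 0.13 (adjusted p = 0.0646) missed the threshold of edgeR. With offsets for length and GC content, the calls of Mrpl12 and Mrpl10 were lost.

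Around the peptide exit tunnel, where the new chain leaves toward the inner membrane, 2 of 5 genes were called higher in each comparison. Mrpl45, which ties the tunnel exit to the membrane (chr11:97315716-97329920, plus strand), had 16, 20.6, 20.5, and 17.5 CPM in CON, 17.3, 20.2, 21.3, 22, and 20.1 in MAL, and 23.0 to 29.0 with a median of 25.2 in MAL-BG. The groups did not overlap, though MAL library 4 came close. Its log2 fold changes were 0.45 ± 0.11 (adjusted p = 0.00391, edgeR) and 0.33 ± 0.10 (adjusted p = 0.0144). Mrpl47 had the lowest level per length of all members, and at 7.14, 7.51, 7.57, and 6.36 CPM in CON, 8.09, 9.55, 7.83, 7.82, and 7.80 in MAL, and 7 to 12 with a median of 11.1 in MAL-BG it was called higher versus CON (0.53 ± 0.16, adjusted p = 0.0144) but missed the threshold versus MAL (0.33 ± 0.15, adjusted p = 0.0865). MAL-BG library 5 was the low one. Its exons overlap those of Actl6a and Ndufb5 on the other strand.

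Mrpl23, next to the tunnel exit, had 4.30, 3.90, 4.65, and 4.09 CPM in CON, 5.02, 2.98, 3.10, 5.08, and 3.03 in MAL, and 2.91 to 5.51 with a median of 4.36 in MAL-BG. The groups overlapped fully, with log2 fold changes of 0.01 ± 0.24 (adjusted p = 0.978, edgeR) and 0.15 ± 0.22 (adjusted p = 0.605). Of its 42-base stretches, the length of 1 read, 76.7% also occur in other genes, with the pseudogene Mrpl23-ps1 as nearest copy, so its counts are uncertain.

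In the central protuberance, 2 of 5 genes were called higher in each comparison. Mrpl46, one of its proteins (chr7:78775236-78783531, minus strand), had 11.8, 9.37, 11.7, and 11.1 CPM in CON, 9.70, 14.6, 13.4, 11.8, and 12.1 in MAL, and 14.3 to 18.6 with a median of 15.7 in MAL-BG. All MAL-BG libraries exceeded CON, and 6 of 7 exceeded MAL. Log2 fold changes were 0.55 ± 0.14 (adjusted p = 0.00381, edgeR) and 0.39 ± 0.13 (adjusted p = 0.0185), both lost as calls with offsets for length and GC content. Its exons overlap those of Mrps11, a small subunit gene, on the other strand.

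Small subunit genes gave fewer calls: 3 higher and 1 lower of 26 versus CON (11.5% and 3.85%, beside 19.8% and 25.2% of all genes), and 8 higher and 0 lower versus MAL (30.8% and 0%, beside 20.2% and 24.1%). Their medians, 0.24 and 0.22, were close to those of the large subunit. The difference between subunits was not tested. Their summed level was 568 ± 50.9 CPM in CON and 543 ± 46.3 in MAL, against 630 ± 43.2 in MAL-BG, and the groups overlapped.

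Mrps9, whose bacterial relative reaches the decoding region (chr1:42851233-42905683, plus strand), led the small subunit. It had 28.5, 27.5, 29.7, and 26.7 CPM in CON, 25.9, 27.7, 27.6, 33.8, and 28.4 in MAL, and 28.1 to 53.1 with a median of 45.0 in MAL-BG. Library 6 was the low one, and the other 6 MAL-BG libraries were above all others. Log2 fold changes were 0.57 ± 0.15 (adjusted p = 0.00598, edgeR) and 0.54 ± 0.14 (adjusted p = 0.00534). Mrps17, an RNA-binding protein with a bacterial relative (chr5:129715497-129722556, plus strand), had 32.5, 23.1, 24.2, and 22.4 CPM in CON, 25.5, 28.0, 27.5, 35.1, and 26.2 in MAL, and 32.4 to 44.1 with a median of 35.7 in MAL-BG. CON library 1 and MAL library 4 were high and overlapped with MAL-BG. Differences were 0.54 ± 0.13 (adjusted p = 0.00372, edgeR) and 0.38 ± 0.12 (adjusted p = 0.018).

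Of 5 genes of the mRNA path and decoding region, 0 were called versus CON and 2 were called higher versus MAL. Mrps12, the decoding protein, had 17.9, 22.8, 17.7, and 18.2 CPM in CON, 14.1, 19.1, 16.9, 20.8, and 16.4 in MAL, and 16.2 to 31.1 with a median of 27.3 in MAL-BG, where 5 libraries lay above all others. It missed the threshold versus CON (0.40 ± 0.17, adjusted p = 0.0695, edgeR) and passed it versus MAL (0.53 ± 0.16, adjusted p = 0.0134). Among the 9 small subunit genes without a bacterial relative, 1 was called higher in each comparison (11.1%, beside 19.8% and 20.2% of all genes). Mrps27, a pentatricopeptide repeat protein of this kind, had 15.8, 12.9, 15.8, and 15 CPM in CON, 11.7, 15.9, 13.4, 14.7, and 11.4 in MAL, and 12.45 to 19.6 with a median of 13.9 in MAL-BG. The groups overlapped, and its log2 fold changes were 0.04 ± 0.16 (adjusted p = 0.861) and 0.18 ± 0.15 (adjusted p = 0.318).

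Both members called lower stood apart from the rest. Mrps6, a small subunit protein with a bacterial relative (chr16:92058270-92112227, plus strand), had 19.7, 63.3, 35.2, and 33.8 CPM in CON, 15.5, 42, 34.2, 14.6, and 28.8 in MAL, and 14.3 to 34.4 with a median of 19.6 in MAL-BG. The groups overlapped, and CON library 2 was the highest of all. Its log2 fold change was −0.94 ± 0.32 versus CON (adjusted p = 0.0259, edgeR) and −0.45 ± 0.31 versus MAL (adjusted p = 0.243). The call versus CON was lost without CON library 2 (−0.60, adjusted p = 0.159) and without MAL-BG library 2 (−0.81, adjusted p = 0.0557). Its exons overlap those of Gm49711 and of Slc5a3, a myo-inositol transporter, on the same strand. Slc5a3 stood at 68.9 ± 37.1 CPM in CON and 48.0 ± 21.4 in MAL, against 27.6 ± 10.7 in MAL-BG.

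Mrps6 followed the choroid plexus markers from library to library. Across the 9 CON and MAL libraries, Pearson's r between Mrps6 and the summed markers was 0.95 (exact permutation p = 8.27e-05, adjusted 0.00132 over 16 relations), Spearman's rho was 0.97 (exact permutation p = 0.000165, adjusted 0.00265), and r without the 2 libraries farthest from the median was 0.94. Within the 7 MAL-BG libraries r was 0.99 (exact permutation p = 0.00337, adjusted 0.027) and rho was 0.86 (exact permutation p = 0.0238, adjusted 0.19), and r without the 2 farthest libraries was 0.93. Mrps6 was chosen for these relations after its values were seen. For Mrpl44, Mrps30, and Mrps36, no relation with the choroid plexus or microglial markers in either set of libraries passed the adjustment. Whether Mrps6 differed at a fixed share of choroid plexus RNA was not tested.

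**Figure D4:**
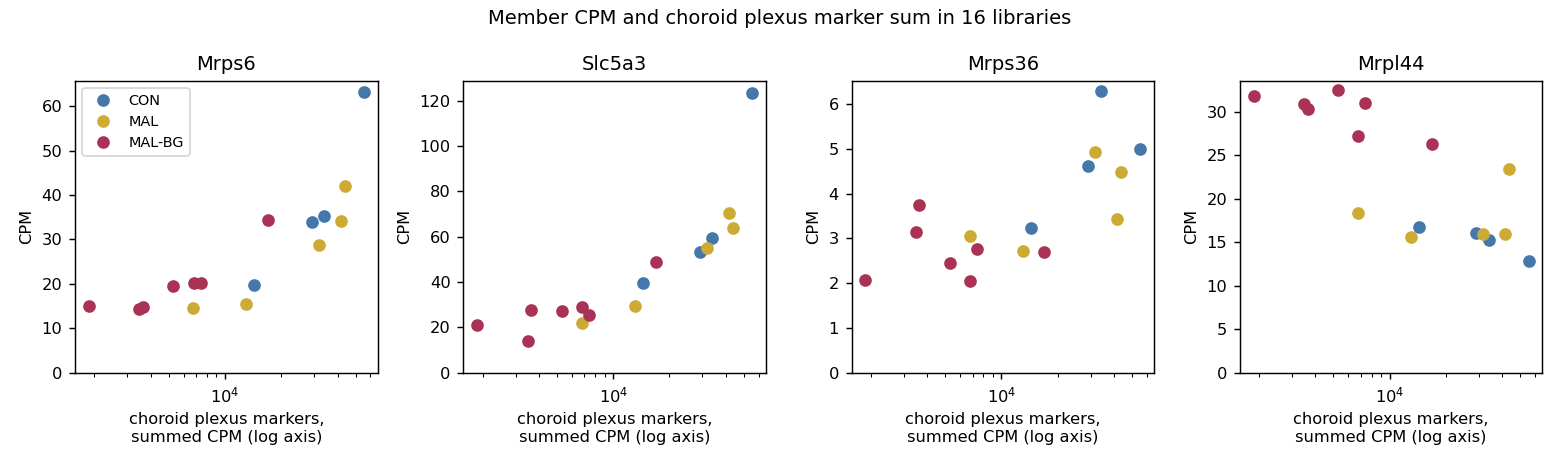
CPM (y axis, from 0) of Mrps6, Slc5a3, Mrps36, and Mrpl44 in the 16 libraries against the summed CPM of 16 choroid plexus markers (log x axis), coloured by group. Mrps6 climbs with the markers in CON and MAL (r = 0.95) and in MAL-BG (r = 0.99), and the MAL-BG points of Mrpl44 lie above all its other points.

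Mrps36 (chr13:100735955-100744659, minus strand) had 3.22, 5.01, 6.31, and 4.62 CPM in CON, 2.72, 4.48, 3.44, 3.06, and 4.94 in MAL, and 2.06 to 3.74 with a median of 2.69 in MAL-BG. The groups overlapped, and 4 MAL-BG libraries lay below all others. It was called lower versus CON (−0.82 ± 0.25, adjusted p = 0.0127, edgeR), not versus MAL (−0.46 ± 0.23, adjusted p = 0.119), and the call was lost without CON library 3 (−0.67, adjusted p = 0.0666). Of its 42-base stretches, 39.7% also occur in other genes, with the pseudogene Mrps36-ps1 as nearest copy.

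Per kilobase of transcript, levels of members spanned 37.9-fold, from 2.63 CPM per kb for Mrpl47 to 100 for Mrpl52, with a median of 16. The next highest were Mrps21 at 68.7, Mrpl24 at 65.1, Mrpl33 at 49.9, and Mrpl20 at 41.2 CPM per kb. Of these 5, 0 were called versus CON and 2 were called higher versus MAL, beside 19.8% and 20.2% of all genes called higher. Mrpl52, a large subunit protein without a bacterial relative, had 41.5, 39.8, 46.4, and 37.1 CPM in CON, 37.2, 37.4, 31.2, 46.8, and 42 in MAL, and 35.8 to 57.3 with a median of 42.9 in MAL-BG. Its groups overlapped, and the log2 fold changes of 0.10 ± 0.14 (adjusted p = 0.593) and 0.18 ± 0.13 (adjusted p = 0.277) missed the threshold of edgeR. Mrpl24, of the exit tunnel, had 95.7, 73.6, 73.1, and 69.7 CPM in CON, 69.9, 74.1, 64.7, 112, and 70.2 in MAL, and 87.7 to 117 with a median of 93.7 in MAL-BG. CON library 1 and MAL library 4 reached into the MAL-BG range. Its log2 fold change was 0.34 ± 0.14 versus CON (adjusted p = 0.0617) and 0.34 ± 0.13 versus MAL (adjusted p = 0.0479). Mrpl20 was called versus MAL at 0.33 ± 0.13 (adjusted p = 0.0473) and not versus CON at 0.17 ± 0.14 (adjusted p = 0.324). With offsets for length and GC, the calls versus MAL were lost, with log2 fold changes of 0.02 for Mrpl20 (adjusted p = 0.898) and 0.0848 for Mrpl24 (adjusted p = 0.572), and each was also lost with total counts, with upper-quartile scaling, and when 1 of 9 (Mrpl20) or 10 (Mrpl24) single libraries was left out. Mrps21 and Mrpl33 were called in neither, with log2 fold changes versus CON of −0.03 ± 0.14 and 0.28 ± 0.17.

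Counting may blur some of these genes. Exons of 8 members overlap another gene on the same strand and those of 27 overlap one on the other strand, and 14 share at least 10% of their 42-base stretches with other genes. The libraries were stranded, but the strand setting used in counting is not given in the sources used here. Of the 36 members with none of these features, 9 were called higher versus CON and 12 versus MAL, beside 19.8% and 20.2% of all genes. Of these 36, 0 were called lower in either comparison, beside 25.2% and 24.1% of all genes.

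Proteins of the mitochondrial ribosome with other names gave similar values. Of 6 measured, 1 was called higher versus CON and 3 versus MAL, with medians of 0.24 and 0.25. These are 16.7% and 50%, beside 19.8% and 20.2% of all genes. Dap3, a GTP-binding protein of the small subunit, rose by 0.41 ± 0.14 versus CON (adjusted p = 0.0235, edgeR) and by 0.34 ± 0.13 versus MAL (adjusted p = 0.0405) on the log2 scale. Chchd1, also of the small subunit, and Aurkaip1 were called versus MAL only.

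Many assembly factors of the mitochondrial ribosome rose, with a larger median than the proteins they assemble, a difference that was not tested. Of 24 measured, 14 were called higher versus CON and 13 versus MAL, and 0 lower (58.3% and 54.2%, beside 19.8% and 20.2% of all genes called higher), with medians of 0.47 and 0.44. Their summed level was 424 CPM in CON and 446 in MAL, against 607 in MAL-BG. Across the alternative settings for MAL-BG versus CON the number called higher was 11 to 17, and the median with offsets for length and GC content was 0.45, and 0.33 versus MAL. Rbfa, a factor for maturation of the small subunit, was 40.5 ± 6.99 CPM in CON and 43.5 ± 9.71 in MAL, against 82.1 ± 18.0 in MAL-BG (log2 fold change 1.02 ± 0.18 versus CON, adjusted p = 0.000389, edgeR). Ngrn, a regulator of the large ribosomal RNA, was 28.9 ± 2.91, 24 ± 2.88, and 49.9 ± 10.5 CPM and was higher in all MAL-BG libraries (1.05 ± 0.15 versus MAL, adjusted p = 7.66e-05). Mettl17 (1.17 ± 0.28 versus CON, adjusted p = 0.00299), a factor of the small subunit, and the ribosomal RNA methyltransferase Ftsj2 (1.05 ± 0.21, adjusted p = 0.000964) were also called in both comparisons.

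**Figure D5:**
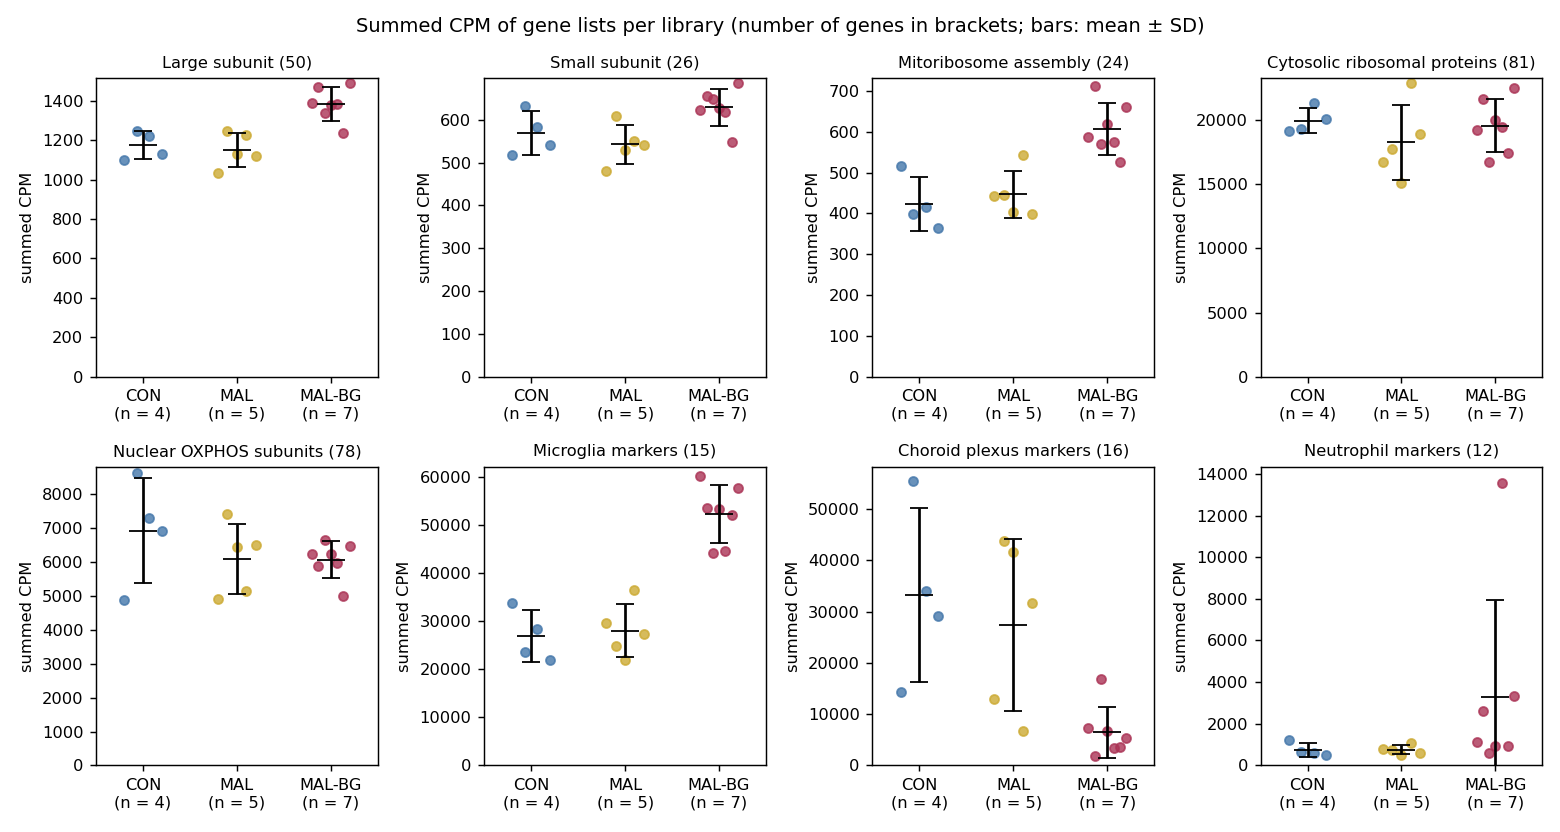
Summed CPM (y axis, from 0) of 8 gene lists in each library, with the mean and SD of each group. The panels show large and small subunit MRPs, assembly factors, cytosolic ribosomal proteins, nuclear OXPHOS subunits, and markers of microglia, choroid plexus, and neutrophils. The MAL-BG mean is 1384 CPM for the large subunit against 1174 and 1151, the microglial sum is higher and the choroid plexus sum lower in MAL-BG, and the sums of cytosolic ribosomal proteins overlap.

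Other genes of mitochondrial gene expression were mixed. Of 14 translation factors, 2 were called higher versus CON and 3 versus MAL, and 0 lower. The shares higher were 14.3% and 21.4%, beside 19.8% and 20.2% of all genes, of which 25.2% and 24.1% were lower. Tsfm, the exchange factor of mitochondrial elongation factor Tu, rose from 14.6 ± 1.27 CPM in CON to 32.7 ± 12 in MAL-BG (1.16 ± 0.26, adjusted p = 0.00189, edgeR), and the initiation factor Mtif3 rose by 0.63 ± 0.14 (adjusted p = 0.00157). The elongation factor Tufm itself, at 0.07 ± 0.19 (adjusted p = 0.785), and the mRNA-binding protein Lrpprc, at −0.09 ± 0.11 (adjusted p = 0.528), were not called. Of 17 mitochondrial aminoacyl-tRNA synthetases, 3 were higher and 4 lower versus CON (17.6% and 23.5%). Versus MAL, 2 of them were higher and 5 lower (11.8% and 29.4%). Ears2, for glutamate, had a log2 fold change of 0.86 ± 0.23 (adjusted p = 0.00586), and Lars2, for leucine, of −0.59 ± 0.16 (adjusted p = 0.00656) with all MAL-BG libraries below the others.

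Of 9 genes of mitochondrial DNA maintenance and transcription, 4 were higher versus CON and 3 versus MAL, and 0 lower. All genes called higher were 19.8% and 20.2%, and those called lower were 25.2% and 24.1%. Only 4 of the 9 had a positive log2 fold change in each comparison, with medians of −0.08 versus CON and −0.12 versus MAL. Tfam, which packages mitochondrial DNA and starts its transcription, was 25.6 ± 1.67 CPM in CON and 28.0 ± 3.57 in MAL, against 41.5 ± 5.58 in MAL-BG without overlap (0.70 ± 0.12 versus CON, adjusted p = 0.000351, and 0.57 ± 0.11 versus MAL, adjusted p = 0.000885, edgeR). The largest rises were those of Mterf1a (1.20 ± 0.29, adjusted p = 0.00317), which binds mitochondrial DNA, and Polg2 (1.04 ± 0.22, adjusted p = 0.00137), the accessory subunit of the mitochondrial DNA polymerase. The RNA polymerase Polrmt was not called (−0.16 ± 0.16, adjusted p = 0.438). Among 10 regulators of mitochondrial biogenesis, 2 were higher and 2 lower versus CON, and 3 higher and 2 lower versus MAL. Nrf1, which binds promoters of many mitochondrial genes, had a log2 fold change of 0.56 ± 0.12 versus CON (adjusted p = 0.00167), and Gabpb1, a subunit of GABP, of 0.46 ± 0.11 (adjusted p = 0.00261), both without overlap of MAL-BG with the other groups. Its paralog Gabpb2 fell by 0.56 ± 0.15 (adjusted p = 0.0071), and the coactivator Ppargc1a fell by 1.77 ± 0.53 (adjusted p = 0.0119), from 10.2 ± 5.97 to 2.97 ± 2.59 CPM. Gabpa, another subunit of GABP, and Yy1 were not called versus CON. Gabpa ranged from 45.2 to 52.1 CPM in CON and from 25.7 to 75.2 in MAL-BG. For Yy1 the ranges were 55.9 to 57.4 CPM in CON and 48.1 to 68.2 in MAL-BG. Ppargc1a was high where the choroid plexus markers were high, with 18.2 CPM in CON library 2 (marker sum 55472), 3.76 in CON library 1 (14369), 2.9 in MAL library 4 (6764), and 8.68 in MAL-BG library 3 (16900), and 1.38 to 3.05 in the other MAL-BG libraries. Marker sums of other cell types were also lower in MAL-BG than in CON. Means were 76.8 against 439 CPM for neurons, 269 against 612 for astrocytes, and 54.7 against 197 for ependyma. The part of any of these cell types in the fall of Ppargc1a was not tested.

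The cytosolic ribosomal proteins and the nuclear-encoded subunits of oxidative phosphorylation (OXPHOS) had lower medians than the MRPs. Of 81 cytosolic ribosomal proteins, 3 were higher and 12 lower versus CON (median −0.10), and 9 higher and 0 lower versus MAL (median 0.03). Of 78 OXPHOS subunits, 3 were higher and 18 lower versus CON (median −0.17), and 8 higher and 10 lower versus MAL (median 0.05). Versus CON, 14.8% of the cytosolic list and 23.1% of the OXPHOS list were lower, beside 25.2% of all genes. Higher were 3.7% and 3.85%, beside 19.8%. Versus MAL, 0% and 12.8% were lower, beside 24.1%, and 11.1% and 10.3% were higher, beside 20.2%. Both lists thus held smaller shares of calls than all genes in each direction. The difference between these lists and the members was not tested. The mRNAs and ribosomal RNAs encoded by mitochondrial DNA, and the release factor gene Mrpl58, were found under none of the names searched and were not analysed here, except that Ict1, an older symbol of Mrpl58, is among the 6 proteins with other names.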

How the data were processed

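RNA-Seq of CD11b+ cells was used from CON (n = 4), MAL (n = 5), and MAL-BG (n = 7). Per the labels and the study's methods, stranded poly(A) libraries (NEBNext Ultra II) were sequenced with paired 42-base reads, aligned with STAR to GRCm38.p6, and counted per gene with HTSeq (version 2.5 in the submitters' processing notes). The table deposited by the authors holds raw counts, not normalized. The annotation and strand option used for counting are not given in the sources used here. Groups were read from the column names, whose running numbers match no sample title, so library numbers are names only and the study's batches could not be assigned to libraries. Columns of per-sample values not used numbered 0.

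A gene was kept (14565 in all) if 4 or more libraries held over 10 counts of it. All 3 groups were fitted together with TMM scaling and the quasi-likelihood test of edgeR 4.0.16 in R 4.3.3, with Benjamini-Hochberg adjustment of p over all genes within each comparison. Calls had an adjusted p under 0.05, and DEGs also an absolute log2 fold change above 0.58. The study fitted a batch term with DESeq2, which could not be repeated without batches, and DESeq2 1.42.0 without one was an alternative. P values measure the spread between these libraries, 1 per mouse. The study housed several mice to a cage, and neither cage nor batch is given for a library. Any cage or batch difference that went with the groups could not be told apart from diet or bacteria. Errors are SD for levels and SE for log2 fold changes. The steps were tested on simulated data. Of 200 genes changed by 1 on the log2 scale, 141 of 200 were called for MAL-BG versus CON among 14450 genes, with 2 calls among unchanged genes, 162 with 11 for MAL-BG versus MAL, and 135 with 6 for MAL versus CON.

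Members, gene lists, and markers were chosen with earlier results of these data known. Members named one by one were the 5 with the highest level per kb, the 8 largest rises and falls called versus CON, the 3 called in 1 MAL-BG comparison only with the largest gap between comparisons, the smallest p in MAL versus CON, and a list chosen for role (Mrps18a, Mrps30, Mrps36, Mrpl10, Mrpl11, Mrpl12, Mrpl23, Mrpl45, Mrps12, Mrps27, Mrpl44, and Mrpl58). Mrpl1, Mrpl9, Mrpl15, and Mrpl32 were added after their values were seen. Of the other lists, those called with the largest change in each direction, up to 3 a list, could be named, with Dap3, Tufm, Polrmt, Tfam, Nrf1, and Lrpprc. Gabpa and Yy1 were added after their values were seen. Overlaps of exons came from the GRCm38 annotation, and promoter sequences from RefSeq for GRCm38.p6.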

Additional observations from a re-analysis of the deposited data

Results flagged for a closer look

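In 84 sets of values (28 measures in each of 3 groups), 7 had a library whose gap to the nearest other, relative to the range of its group, passed Dixon's 95% limit, and chance passes it in about 1 of 20. Mrpl24 stood out in 2 groups, with 95.7 CPM in CON library 1 (next highest 73.6) and 112 in MAL library 4 (next 74.1). MAL library 4 was also high for Mrps17, at 35.1 CPM (next 28.0). For Mrpl47, MAL library 2 held 9.55 CPM (next 8.09), and for Mrps12, CON library 2 held 22.8 CPM (next 18.2). Mrpl11 was low in MAL library 1, at 19 CPM (next lowest 23.6). Mrps6 was high in MAL-BG library 3, at 34.4 CPM (next 20.3), the MAL-BG library with the most choroid plexus marker RNA (16900 CPM summed). Causes were not tested.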

How the results depend on the processing

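The number of members called versus CON was 20 with edgeR and 31 with DESeq2. It was 37 with offsets for length and GC content plus scaling by the mean log2 CPM. It was 9 among the 36 members without an overlapping gene or copy, and 5 with an absolute log2 fold change above 0.58 as well. With DESeq2, 37.7% of members were higher and 2.6% lower, beside 22.6% and 25.8% of all genes. With offsets plus mean scaling, 45.5% were higher and 2.6% lower, beside 32% and 17.5% of all genes. Versus MAL, 25 members became 14 with total counts alone, 12 among those 36 members, and 2 above 0.58. With total counts, 15.6% of members were higher and 2.6% lower versus MAL, beside 13.9% and 29.8% of all genes. Leaving out 1 library gave 13 (without CON library 4) to 31 (without MAL-BG library 6) versus CON and 16 (without MAL library 1) to 34 (without MAL-BG library 6) versus MAL. Without CON library 4, 14.3% of members were higher and 2.6% lower versus CON, beside 15.4% and 21.4% of all genes. Without MAL library 1, 20.8% were higher and 0% lower versus MAL, beside 16.8% and 22.1%. The member median moved to 0.0638 and 0.0399 (versus CON and MAL) with the offsets and to 0.0811 and 0.114 with total counts, by more than its SD between libraries of a group (0.115), and leaving out 1 library kept it between 0.17 and 0.30 and between 0.19 and 0.29. Of 18 and 25 genes called higher, 13 and 11 kept the call with offsets, and 10 and 12 with total counts. The cause was not tested.

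With offsets, 13 of the 77 members turned sign versus CON and 23 versus MAL, and with total counts 12 and 6. Of these, 1 was called on either side, Mrps24, lower versus MAL with offsets. Of members named in the text, those that turned versus CON were Mrpl52 (−0.0378) with total counts, Mrps21 (0.0385) with offsets plus mean scaling, Mrpl20 (−0.0705) with offsets, Mrpl23 with total counts (−0.11), upper-quartile scaling (−0.0046), only the compared groups (−0.0046), thinned libraries (−0.0501), offsets (−0.13), and without MAL-BG libraries 3 and 5 (−0.10), Mrps27 with total counts (−0.0879), offsets (−0.14), and without those libraries (−0.0262), and Mrpl32 likewise (−0.0742, −0.0564, and −0.0096). Versus MAL, offsets turned the named members Mrpl52 (−0.0315), Mrps21 (−0.10), Mrpl33 (−0.0594), Mrpl23 (−0.11), Mrps27 (−0.0058), and Mrpl32 (−0.0332), total counts turned Mrpl57 (−0.0376) and Mrpl32 (−0.117), and Mrpl32 also turned with upper-quartile scaling (−0.0104) and without MAL-BG libraries 3 and 5 (−0.0332). Leaving out 1 library also ended calls of named members, with adjusted p just over 0.05 to 0.161. Versus CON these were Mrpl12 (without CON library 1 or 4), Mrps18a (CON 1, 3, or 4), Mrpl47 (CON 4), Mrpl1 (CON 3 or 4), Mrps36 (CON 3), Mrps6 (CON 2 or MAL-BG 2), and Mrpl10, and versus MAL they were Mrpl45 and Mrpl46 (MAL 1), Mrps17 (MAL 1 or 5), Mrps18a (MAL 1, 3, 4, or 5), Mrpl10, Mrpl20, and Mrpl24. For Mrpl10 (both comparisons), Mrpl20, and Mrpl24, 9 or 10 of the 16 libraries did so. On the same basis, versus CON, Mrpl23 ranged from −0.0701 to 0.14, Mrps21 from −0.13 to 0.0367, Mrps27 from −0.0485 to 0.14, and Mrpl32 from −0.0300 to 0.161 (−0.0484 to 0.130 versus MAL).

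No paired analysis was possible because the columns carry running numbers that match no sample title. With 4 to 7 libraries a group, standard errors of 0.09 to 0.32 set the smallest change of a named member that could pass. The alternatives with mean log2 CPM scaling, total counts alone, members without overlap, and without MAL-BG libraries 3 and 5 were chosen after seeing the data.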
